A study of Mus musculus with 11 samples.

Results

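The LIM-only genes Lmo1, Lmo2, Lmo3 and Lmo4 and the Ldb cofactor genes Ldb1 and Ldb2 were followed across 3 types of mouse motor neuron. The members are the probe sets whose platform annotation carries 1 of these symbols and no other. They number 8 probe sets of 6 genes, among 45037 probe sets tested and 18193 genes with a probe set of their own. Where a gene has several, the one with the highest mean over all arrays stands for it. Only Ldb2 has more than 1 probe set. The representatives are 1418478_at for Lmo1, 1454086_a_at for Lmo2, 1455754_at for Lmo3, 1420981_a_at for Lmo4, 1452024_a_at for Ldb1 and 1439557_s_at for Ldb2.

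RNA was measured on 11 Affymetrix arrays, 1 per sample. Phrenic motor neurons (4 arrays) are the cells that drive the diaphragm, radial motor neurons of the lateral motor column, called LMC radial (3 arrays), innervate the forelimb, and the cervical cells called C3-C5 GFP-only (4 arrays) make up the other type. All samples came from C57/BL6 embryos, whose age the labels do not give, that carried the Hb9::GFP reporter, a transgene in which a motor neuron promoter drives green fluorescent protein. A rhodamine dextran was taken up backwards through the phrenic or the radial nerve of trunk explants, and motor neurons were sorted by fluorescence once the cord had been dissociated. GFP-only cells are taken from the title to carry the reporter without the dextran, so they hold the other Hb9::GFP cells of these segments and are no single motor column. The titles give no segment for LMC radial cells, so segment and cell type cannot be told apart in comparisons with them. Whether the replicates are separate embryos, litters or preparations is not stated, so the p-values reflect only how far these arrays differ among themselves, which may be technical.

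LIM-only proteins consist of little more than tandem LIM domains, zinc-binding folds that contact other proteins and not DNA. They bind the LIM interaction domain of Ldb proteins, which dimerise and so bridge LIM-homeodomain transcription factors into larger complexes on DNA. In the developing spinal cord Ldb1 assembles Isl1 and Lhx3 into the complex that drives motor neuron genes, and Lmo4 can compete with LIM-homeodomain factors for Ldb. In blood progenitors, Lmo2 links Ldb1 to GATA and basic helix-loop-helix (bHLH) factors.

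Of the 6 members, 4 had an entry in the RefSeq promoter table (mouse build GRCm38.p6), namely Lmo1, Lmo3, Lmo4 and Ldb1. It holds 2 entries for Lmo1, 1 for Lmo3, 3 for Lmo4 and 3 for Ldb1, and only the most upstream of each gene was used. Motifs before the other starts were not counted. The 250 bases before that start are shown for Lmo1 and Lmo4, which were both lower in LMC radial cells than in either other type. Their windows lie outside the annotated gene span. The Lmo3 and Ldb1 windows overlap the annotated span of their gene, so they are counted below but not shown. Capitals mark TAAT, the core contacted by many homeodomains (a TAATTA is marked whole), and CANNTG, the E-box bound by bHLH factors, both searched on both strands. Both genes lie on the minus strand, and the sequences are written 5′ to 3′ in the direction of transcription. The Lmo1 window is chr7:109175208-109175457 and the Lmo4 window is chr3:144205256-144205505.

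Lmo1: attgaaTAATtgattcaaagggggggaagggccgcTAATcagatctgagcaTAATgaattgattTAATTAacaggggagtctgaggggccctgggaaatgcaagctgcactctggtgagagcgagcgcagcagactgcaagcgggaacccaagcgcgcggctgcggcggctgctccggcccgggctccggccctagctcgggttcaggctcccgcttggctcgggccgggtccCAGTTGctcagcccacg

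Lmo4: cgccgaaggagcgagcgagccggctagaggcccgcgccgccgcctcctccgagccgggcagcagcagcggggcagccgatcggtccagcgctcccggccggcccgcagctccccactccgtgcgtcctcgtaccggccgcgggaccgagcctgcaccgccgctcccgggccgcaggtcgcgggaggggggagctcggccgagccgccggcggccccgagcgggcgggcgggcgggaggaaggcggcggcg

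The Lmo1 window holds 5 TAAT matches over both strands, of which 2 lie in the 1 palindromic TAATTA, read from either strand, and 1 CANNTG. Its GC content is 61.2%. The Lmo4 window has a GC content of 82.4% and holds 0 matches to any of these motifs or to GATA, the core bound by GATA factors. The Lmo3 window has a GC content of 50% and holds 2 TAAT and 2 CANNTG matches, and the Ldb1 window has a GC content of 76% and holds 0 of the 4 motifs. Over 32851 promoter windows of the same 250 bases, the shares with a match were 54.9% for TAAT, 4.84% for the longer TAATTA, 66.2% for the E-box and 53.6% for GATA. A match is a description of the letters and does not show that a factor binds there.

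Lmo3 and Lmo4 were both lower in phrenic than in C3-C5 GFP-only cells, and opposite to each other between phrenic and LMC radial cells. Lmo1 separated LMC radial cells from both other types. Lmo2 and Ldb1 passed in none of the 3 comparisons, and for Ldb2 the outcome depended on the probe set and on the fit. Passing here means an adjusted p under 0.05 in limma's moderated test (Benjamini-Hochberg over all probe sets). Phrenic against C3-C5 GFP-only passed for 2 of 6 members, Lmo3 and Lmo4, where 1.96% of all probe sets passed. Phrenic against LMC radial passed for 3 of 6 members, Lmo1, Lmo3 and Lmo4, where 6.61% of all probe sets passed. LMC radial against C3-C5 GFP-only passed for 2 of 6 members, Lmo1 and Lmo4, where 3.76% of all probe sets passed. The 3 comparisons share arrays pairwise and are not independent. Because RNA came from pooled sorted cells, fewer expressing cells and less RNA per cell cannot be told apart.

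**Figure D1:**
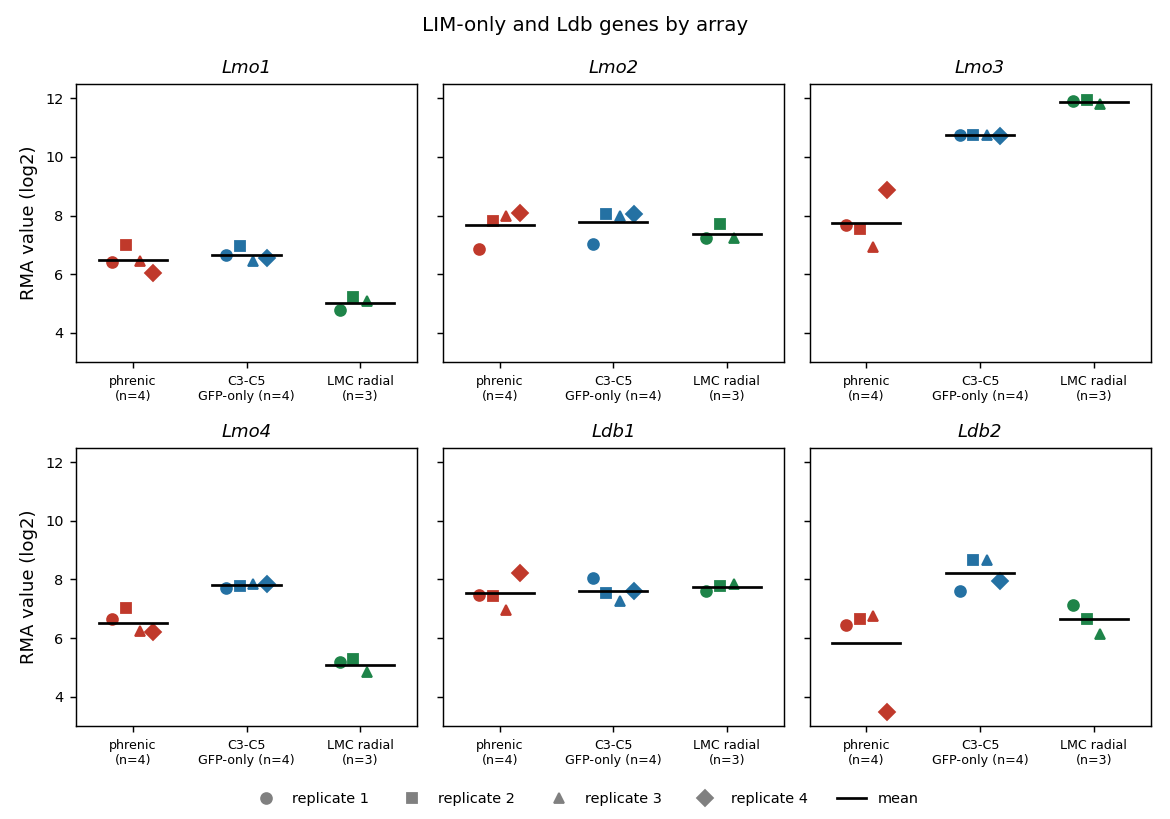
Deposited RMA value (log2, vertical axis) of the 6 members in each array, by cell type, with a marker shape for each replicate number and a bar at the mean of each type. Lmo3 lies between 6.93 and 8.89 in phrenic arrays and above 10 in all others, and Lmo4 falls into 3 levels that do not overlap.

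Lmo3, a LIM-only gene of the nervous system also known from neuroblastoma, had the largest differences of phrenic cells from both other types among the representative probe sets. Its log2 value in phrenic replicates 1 to 4 was 7.69, 7.54, 6.93 and 8.89. In C3-C5 GFP-only replicates 1 to 4 it was 10.76, 10.75, 10.76 and 10.72, and in LMC radial replicates 1 to 3 it was 11.92, 11.94 and 11.81. The 3 types did not overlap, the phrenic arrays were all the lowest, and the spread lay almost wholly among them, with phrenic replicate 4 the highest. The phrenic mean of 7.76 ± 0.82 (SD, n = 4) was 2.99 ± 0.31 (SE) log2 units, or 7.93-fold, below the C3-C5 GFP-only mean of 10.75 ± 0.02 (SD, n = 4), with an adjusted p of 0.000732. It was 4.13 ± 0.34 log2 units, or 17.5-fold, below the LMC radial mean of 11.89 ± 0.07 (SD, n = 3), with an adjusted p of 5.66e-05.

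LMC radial cells had 1.14 ± 0.34 (SE) log2 units more Lmo3 than C3-C5 GFP-only cells, or 2.21-fold, which did not pass (adjusted p = 0.092, 95% confidence interval 0.40 to 1.89). The arrays of these types are tightly grouped and do not overlap, and the standard error in the common model includes the phrenic spread. It passed in 5 of 24 alternatives. With only these 7 arrays fitted the adjusted p was 0.000625, without phrenic replicate 4 it was 0.00423, and without phrenic replicate 3 it was 0.0471. With the array set as a block the difference was 0.88 (adjusted p = 0.256), and with the mesenchyme covariate 0.83 (adjusted p = 0.378). The order of Lmo3 levels was thus LMC radial, C3-C5 GFP-only, phrenic, with the first of these steps passing in some of the fits only.

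Lmo4, the LIM-only protein that competes for Ldb in motor neurons, was the only member that passed in all 3 comparisons, which 0.224% of all probe sets did. In phrenic replicates 1 to 4 its log2 value was 6.64, 7.01, 6.23 and 6.20. In C3-C5 GFP-only replicates 1 to 4 it was 7.72, 7.79, 7.84 and 7.85, and in LMC radial replicates 1 to 3 it was 5.17, 5.27 and 4.83. Every C3-C5 GFP-only array was above every phrenic array, and every phrenic array was above every LMC radial array.

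Lmo4 averaged 7.80 ± 0.06 (SD, n = 4) in C3-C5 GFP-only cells, 6.52 ± 0.39 (SD, n = 4) in phrenic cells and 5.09 ± 0.23 (SD, n = 3) in LMC radial cells. Phrenic cells were 1.28 ± 0.18 (SE) log2 units, or 2.43-fold, below C3-C5 GFP-only cells (adjusted p = 0.0041) and 1.43 ± 0.19, or 2.70-fold, above LMC radial cells (adjusted p = 0.00149). LMC radial cells were 2.71 ± 0.19 log2 units, or 6.54-fold, below C3-C5 GFP-only cells, with an adjusted p of 6.95e-05. With values under 5, a level taken as dim, raised to 5, LMC radial cells were at least 2.59-fold below phrenic cells. On the same terms they were at least 6.28-fold below C3-C5 GFP-only cells. Lmo3 and Lmo4 therefore had different orders, since phrenic cells were lowest in Lmo3 and intermediate in Lmo4. Of the 62 genes that passed in all 3 comparisons, 5 had the order of Lmo4, and they are named although they were chosen after their values were seen. Beside Lmo4 they were Mecom and Prdm16, related zinc-finger transcription factors, Ramp3, a partner protein of G protein-coupled receptors, and Eml1, a microtubule-associated protein.

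The arrays fall into 2 sets by their 25th percentile, with phrenic replicates 2 and 3 and C3-C5 GFP-only replicates 2 and 3 in the lower set and the other 7 arrays in the higher. Within the higher set, phrenic was below C3-C5 GFP-only by 2.45 log2 units for Lmo3 (adjusted p = 0.0623) and by 1.36 for Lmo4 (adjusted p = 0.0833). Within the lower set, a split tried after seeing the data, the differences were -3.52 (adjusted p = 0.028) and -1.20 (adjusted p = 0.238). Both genes thus kept their direction and most of their size within each set, with fewer arrays in each fit. A list of 14 mesenchyme markers also moved with this comparison. Its mean was 5.37 to 7.19 in phrenic, 4.56 to 5.04 in C3-C5 GFP-only and 5.17 to 6.42 in LMC radial arrays. Of these markers 2 were higher in phrenic than in C3-C5 GFP-only cells and 0 lower, namely Fn1 and Foxc1, and their part in the result was not tested beyond the next value. Other cell marker lists also had a higher mean in phrenic than in C3-C5 GFP-only arrays, although 0 of their genes passed in either direction. The progenitor mean was 6.72 against 6.38 and the endothelial mean 4.32 against 3.77. The macrophage or microglia mean was 3.99 against 3.55 and the V2 interneuron mean 3.89 against 3.80. The erythroid list went the other way, at 4.62 against 4.94, as did the motor neuron list, at 8.72 against 8.84. The 13 measured markers of other interneurons, of which 7 had all type means below 5, had a list mean of 4.65 to 6.22 in phrenic, 4.32 to 4.62 in C3-C5 GFP-only and 4.14 to 4.99 in LMC radial arrays. Of 6 Schwann or glia markers 4 were measured, with a list mean of 4.81 to 7.40, 5.10 to 5.45 and 5.37 to 5.92 in the same order. The median difference of phrenic minus C3-C5 GFP-only was 0.72 log2 units for the other interneuron list and 0.73 for the Schwann or glia list. The part of the lists other than mesenchyme in the Lmo3 and Lmo4 results was not tested. With the mesenchyme list mean as a covariate the phrenic minus C3-C5 GFP-only difference was -3.42 for Lmo3 (adjusted p = 0.0168) and -0.98 for Lmo4 (adjusted p = 0.191).

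**Figure D2:**
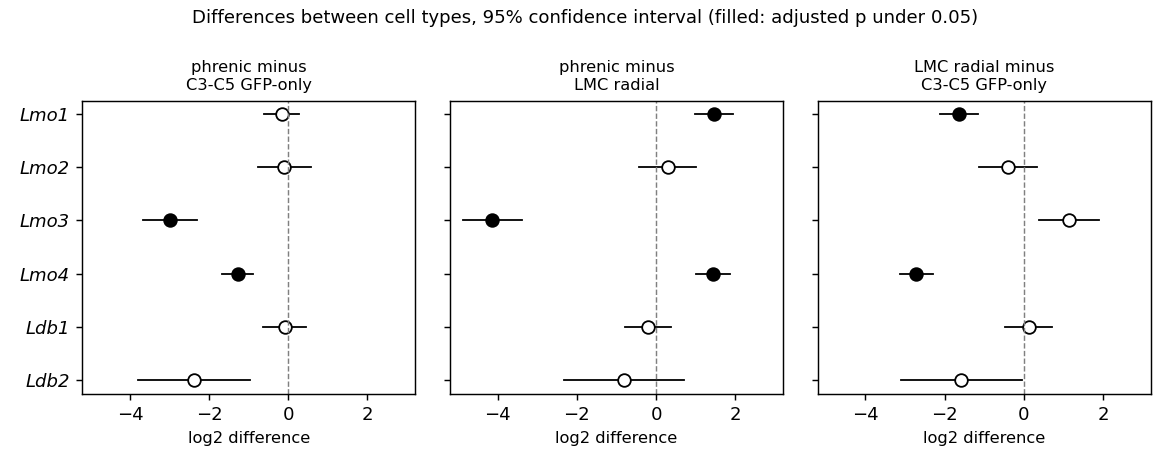
Log2 difference of each member (horizontal axis) in the 3 comparisons, with 95% confidence intervals from the limma fit and filled points where the adjusted p is under 0.05. Lmo3 is lowest in phrenic cells and Lmo1 and Lmo4 are lowest in LMC radial cells, while the intervals of Lmo2 and Ldb1 span 0 throughout.

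Lmo1, a LIM-only gene known from T-cell leukaemia and neuroblastoma, was lower in LMC radial cells and close between the other types. Its log2 value in LMC radial replicates 1 to 3 was 4.78, 5.21 and 5.07. In phrenic replicates 1 to 4 it was 6.43, 7.01, 6.45 and 6.05, and in C3-C5 GFP-only replicates 1 to 4 it was 6.66, 6.97, 6.46 and 6.54. Each LMC radial array was below each of the other 8, and the phrenic and C3-C5 GFP-only arrays overlapped.

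The LMC radial mean of Lmo1, 5.02 ± 0.22 (SD, n = 3), was 2.76-fold below the phrenic mean of 6.49 ± 0.40 (SD, n = 4), with a log2 difference of 1.47 ± 0.21 (SE, adjusted p = 0.00239). It was 3.11-fold below the C3-C5 GFP-only mean of 6.66 ± 0.22 (SD, n = 4), with a log2 difference of -1.63 ± 0.21 (adjusted p = 0.00265). With values under 5 raised to 5, the LMC radial level was at least 2.62-fold below phrenic and at least 2.95-fold below C3-C5 GFP-only cells. Between phrenic and C3-C5 GFP-only cells the difference was -0.17 ± 0.20 (adjusted p = 0.823), and its 95% confidence interval ran from -0.60 to 0.26. Lmo1 and Lmo4 thus share the low LMC radial level, and only Lmo4 of this pair also passed between phrenic and C3-C5 GFP-only cells. Whether Lmo4 and Lmo1 differ in that comparison was not tested.

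Lmo2, best known as a partner of Tal1 and GATA factors in blood and endothelium, had similar means in all types. Its log2 value was 6.85, 7.80, 7.98 and 8.09 in phrenic replicates 1 to 4, and 7.02, 8.04, 7.99 and 8.06 in C3-C5 GFP-only replicates 1 to 4. In LMC radial replicates 1 to 3 it was 7.22, 7.71 and 7.22. Replicate 1 was the lowest array of both the phrenic and the C3-C5 GFP-only type, and all 3 types overlapped. The differences were -0.10 ± 0.30 (SE) for phrenic minus C3-C5 GFP-only (adjusted p = 0.945, interval -0.77 to 0.57), 0.30 ± 0.33 for phrenic minus LMC radial (adjusted p = 0.644, interval -0.43 to 1.02) and -0.40 ± 0.33 for LMC radial minus C3-C5 GFP-only (adjusted p = 0.538, interval -1.12 to 0.33). Over the 3 comparisons these intervals reach from -1.12 to 1.02 log2 units. The blood and vessel cells in which Lmo2 is best known were followed by their markers. Of 10 endothelial markers 7 had all type means below 5 on the log2 scale, a level taken as dim, and the list mean was 3.96 to 4.94 in phrenic, 3.56 to 4.02 in C3-C5 GFP-only and 3.83 to 4.61 in LMC radial arrays. Of 8 erythroid markers 7 were measured and 4 had all type means below 5, and the list mean was 3.34 to 5.64, 4.72 to 5.18 and 4.10 to 5.59 in arrays of the same types. The erythroid regulator Gata1 was at 2.82, 2.77 and 2.71 in the 3 types. The embryonic globin Hbb-y ranged from 3.35 to 10.14 in phrenic, 8.53 to 9.65 in C3-C5 GFP-only and 6.53 to 10.46 in LMC radial arrays, and its lowest value was in phrenic replicate 3, where Lmo2 was at 7.98. The part of such cells in the Lmo2 values was not tested.

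Ldb1, the widely expressed bridging cofactor, was measured at similar levels in every type. Its log2 value was 7.48, 7.44, 6.95 and 8.23 in phrenic replicates 1 to 4, and 8.05, 7.53, 7.25 and 7.61 in C3-C5 GFP-only replicates 1 to 4. In LMC radial replicates 1 to 3 it was 7.59, 7.77 and 7.84. The phrenic arrays spanned the values of the other types. The means were 7.52 ± 0.53 (SD, n = 4), 7.61 ± 0.33 (SD, n = 4) and 7.73 ± 0.13 (SD, n = 3), and the 3 differences were -0.09 ± 0.25 (SE) for phrenic minus C3-C5 GFP-only (adjusted p = 0.942), -0.21 ± 0.27 for phrenic minus LMC radial (adjusted p = 0.693) and 0.12 ± 0.27 for LMC radial minus C3-C5 GFP-only (adjusted p = 0.838). Their 95% confidence intervals ran from -0.63 to 0.46, from -0.79 to 0.38 and from -0.46 to 0.71.

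Ldb2, the paralogue of Ldb1, was highest in C3-C5 GFP-only cells on each of its 3 probe sets, with no overlap of these arrays with the other types. On its representative probe set 1439557_s_at the log2 value was 6.46, 6.65, 6.77 and 3.48 in phrenic replicates 1 to 4. It was 7.60, 8.66, 8.66 and 7.94 in C3-C5 GFP-only replicates 1 to 4 and 7.13, 6.65 and 6.15 in LMC radial replicates 1 to 3. Phrenic replicate 4 was more than 2 log2 units below every other array here. The difference of phrenic from C3-C5 GFP-only cells was -2.38 ± 0.64 (SE, adjusted p = 0.102, interval -3.78 to -0.97), and that of LMC radial from C3-C5 GFP-only cells was -1.57 ± 0.69 (adjusted p = 0.234). Neither passed, and phrenic minus LMC radial was -0.80 ± 0.69 (adjusted p = 0.535).

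On Ldb2 probe set 1421101_a_at the values were 4.40, 5.12, 4.46 and 6.58 in phrenic, 7.22, 7.12, 7.16 and 7.01 in C3-C5 GFP-only, and 5.91, 5.94 and 5.05 in LMC radial arrays. Phrenic replicate 4 was the highest phrenic array on this probe set and the lowest on the others. On probe set 1456786_at the values were 3.87, 5.74, 5.74 and 2.48 in phrenic, 6.56, 7.90, 8.06 and 7.73 in C3-C5 GFP-only, and 5.86, 5.32 and 4.85 in LMC radial arrays. Both probe sets passed for phrenic minus C3-C5 GFP-only, with differences of -1.99 ± 0.41 (SE, adjusted p = 0.036) and -3.11 ± 0.66 (adjusted p = 0.0393). With values under 5 raised to 5, the second corresponds to a phrenic level at least 4.58-fold lower. For LMC radial minus C3-C5 GFP-only they gave -1.49 ± 0.45 (adjusted p = 0.0951) and -2.22 ± 0.71 (adjusted p = 0.117), which did not pass.

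The outcome for Ldb2 depended on single arrays and on the fit. For phrenic minus C3-C5 GFP-only it passed in 7 of 27 alternatives, its other probe sets among them. With all arrays kept, 1439557_s_at passed with array weights (adjusted p = 0.0392) and with the array set as a block (adjusted p = 0.0454). It passed in the lower set alone (adjusted p = 0.0274) and not in the higher set alone (adjusted p = 0.29). Without phrenic replicate 4 all 3 probe sets passed for phrenic minus C3-C5 GFP-only, with adjusted p of 0.0168 for 1439557_s_at (difference -1.59), 0.000379 for 1421101_a_at (-2.47) and 0.0275 for 1456786_at (-2.45). On 1421101_a_at the phrenic mean was then 4.66, under 5, and with values under 5 raised to 5 the phrenic level was at least 4.25-fold lower than in C3-C5 GFP-only cells. All 3 then also passed for LMC radial minus C3-C5 GFP-only, with adjusted p of 0.0145, 0.00704 and 0.0300. For phrenic minus LMC radial the probe sets then parted, with -0.018 on 1439557_s_at (adjusted p = 0.977), -0.23 on 1456786_at (adjusted p = 0.817) and -0.98 on 1421101_a_at, which passed (adjusted p = 0.0378) with a phrenic level at least 1.51-fold lower once values under 5 were raised. Probe set 1421101_a_at passed for phrenic minus C3-C5 GFP-only only when phrenic replicate 4 or LMC radial replicate 3 was left out, and 1456786_at only when phrenic replicate 2, 3 or 4 or C3-C5 GFP-only replicate 1 was. Leaving out any other single array ended those calls. Averaged over the 3 probe sets, the gene was 2.49 log2 units lower in phrenic than in C3-C5 GFP-only cells (adjusted p = 0.002). It was 1.76 lower in LMC radial than in C3-C5 GFP-only cells (adjusted p = 0.0231). The average partly offsets the opposite places of phrenic replicate 4 on the probe sets, so these p-values do not show that disagreement. Phrenic values under 5 entered the average as they were, and its size with them raised to 5 was not computed. Phrenic replicate 4 also had the highest mesenchyme marker mean of the phrenic arrays, 7.19 against 5.37 to 6.82 in the others, and the part of this in the Ldb2 values was not tested.

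**Figure D3:**
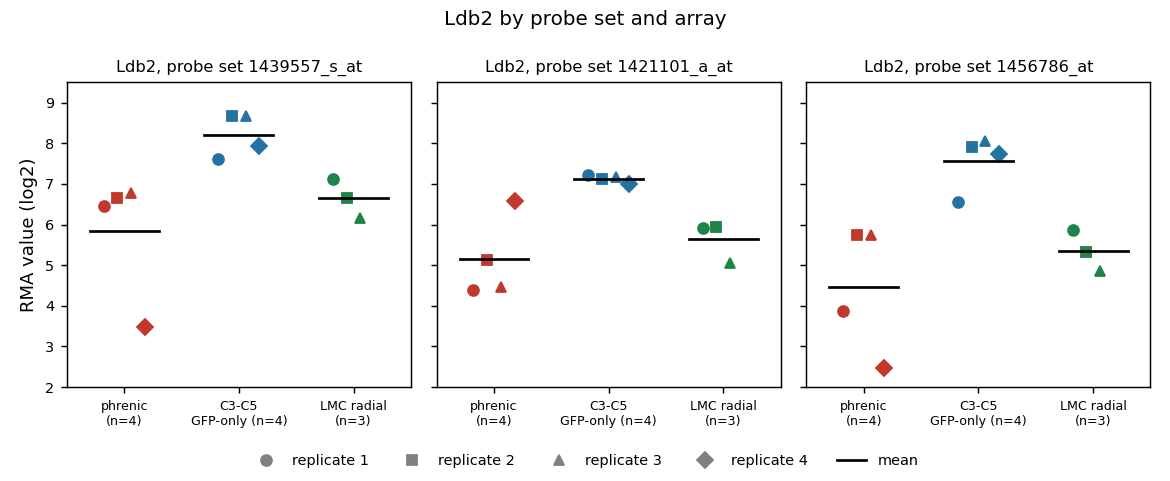
Deposited RMA value (log2, vertical axis) of the 3 Ldb2 probe sets in each array, by cell type, with a marker shape per replicate number and a bar at each mean. C3-C5 GFP-only arrays are above all others in each panel, and phrenic replicate 4 changes its place among the phrenic arrays, at 6.58 on probe set 1421101_a_at and at 3.48 and 2.48 on the others.

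Counted by overlap instead of by the test, the representative probe sets of Lmo3, Lmo4 and Ldb2 separated phrenic from C3-C5 GFP-only arrays, 3 of 6 members where 7.49% of all probe sets did so. Lmo1, Lmo3 and Lmo4 separated phrenic from LMC radial arrays, where 18.7% of all probe sets did. Lmo1, Lmo3, Lmo4 and Ldb2 separated LMC radial from C3-C5 GFP-only arrays, 4 of 6 members where 23.1% did.

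The LIM-homeodomain factors, which share the Ldb surface with the LIM-only proteins, differed between types through 5 genes. All 12 of the list were measured, and 7 had all type means below 5. In phrenic against C3-C5 GFP-only cells 3 passed as lower and 0 as higher, in phrenic against LMC radial cells 1 was higher and 1 lower, and in LMC radial against C3-C5 GFP-only cells 4 were lower and 0 higher. The median difference of the list was -0.01, 0.07 and 0.00 log2 units in these comparisons, beside 0.00, -0.01 and 0.00 for all probe sets.

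Lhx3, a medial motor column factor that joins Isl1 in the Ldb1 complex, had a mean log2 value of 10.01 in C3-C5 GFP-only, 5.11 in phrenic and 3.85 in LMC radial cells. Phrenic cells were lower by 4.90 ± 0.47 (SE, adjusted p = 0.000385), and LMC radial cells by 6.16 ± 0.51 (adjusted p = 0.000173), or at least 32.3-fold with values under 5 raised to 5. Its relative Lhx4 was likewise at 11.88, 8.66 and 8.36, lower by 3.22 ± 0.32 in phrenic (adjusted p = 0.000477) and by 3.52 ± 0.35 in LMC radial cells (adjusted p = 0.000541). Against C3-C5 GFP-only cells, the low Lhx3 and Lhx4 of phrenic cells thus stood beside lower Lmo3, Lmo4 and, on 2 of 3 probe sets, Ldb2. Between phrenic and LMC radial cells neither Lhx3 nor Lhx4 passed. LMC radial cells had the highest Lmo3 mean, 11.89, and the lowest Lmo4 mean, 5.09. Whether Lhx3 or Lhx4 has a part in the Lmo or Ldb2 levels was not tested.

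Isl1, a determinant of motor neurons, was at 12.32 in phrenic, 11.99 in C3-C5 GFP-only and 9.63 ± 1.33 (SD, n = 3) in LMC radial cells, where single arrays ran from 8.26 to 10.92. It was higher in phrenic than in LMC radial cells by 2.69 ± 0.45 (SE, adjusted p = 0.00521) and lower in LMC radial than in C3-C5 GFP-only cells by 2.36 ± 0.45 (adjusted p = 0.0177). Isl2, its paralogue, was at 7.78 in C3-C5 GFP-only cells, and lower by 0.99 ± 0.16 in phrenic (adjusted p = 0.0105) and by 1.05 ± 0.18 in LMC radial cells (adjusted p = 0.0100). Lhx1, a marker of the lateral division of the limb column, was lower in phrenic than in LMC radial cells by 2.91 ± 0.41 (adjusted p = 0.00193). Its means were 8.79 in phrenic, 10.45 in C3-C5 GFP-only and 11.70 in LMC radial cells, the same order as for Lmo3. Lhx1 did not pass between phrenic and C3-C5 GFP-only (-1.66 ± 0.38, adjusted p = 0.0535) or between LMC radial and C3-C5 GFP-only cells (1.25 ± 0.41, adjusted p = 0.121). Lmx1b, a factor of dorsal interneurons, was below 5 in all arrays and passed in none.

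Genes that stabilise Ldb or mark it for breakdown passed in none of the comparisons. The 4 measured were Ssbp2, Ssbp3 and Ssbp4, which encode single-stranded DNA-binding proteins that protect Ldb, and Rlim, a ubiquitin ligase of LIM cofactors. Ssbp2 came nearest, at 8.34 in phrenic against 9.02 in C3-C5 GFP-only cells, with a difference of -0.68 ± 0.17 (SE, adjusted p = 0.0692). The medians of the list were -0.11, -0.02 and -0.09 log2 units in phrenic minus C3-C5 GFP-only, phrenic minus LMC radial and LMC radial minus C3-C5 GFP-only.

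The bHLH and GATA partners that LIM-only proteins bridge to DNA were measured with 16 genes, of which 5 had all type means below 5. In phrenic against C3-C5 GFP-only cells 1 was lower and 0 higher, in phrenic against LMC radial cells 1 was higher and 1 lower, and in LMC radial against C3-C5 GFP-only cells 1 was higher and 3 lower. The medians of the list were -0.13, 0.24 and -0.23 log2 units in the same order. Zfpm2, a cofactor of GATA proteins, was at 7.76 in phrenic, 8.01 in C3-C5 GFP-only and 4.76 in LMC radial cells. LMC radial cells were at least 6.79-fold below phrenic (adjusted p = 5.78e-05) and at least 8.04-fold below C3-C5 GFP-only cells (adjusted p = 0.000109), with values under 5 raised to 5. This placed Zfpm2 beside Lmo1 and Lmo4 among the genes low in LMC radial cells.

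Neurod1, a proneural bHLH factor, was at 9.28 in C3-C5 GFP-only cells and lower by 1.20 ± 0.25 (SE) in phrenic (adjusted p = 0.0374) and by 1.74 ± 0.27 in LMC radial cells (adjusted p = 0.00691). Nhlh1, a bHLH factor of young neurons, was at 8.50 in C3-C5 GFP-only cells and lower by 2.48 ± 0.55 in LMC radial cells (adjusted p = 0.0328). Its phrenic arrays ran from 5.69 to 8.60, and that difference of -1.46 ± 0.51 did not pass (adjusted p = 0.214). Gata3 passed in both comparisons with LMC radial cells, but every array was below 5 and no difference was left once values under 5 were raised. Gata2, at 5.19, 4.93 and 5.43 in the phrenic, cervical and LMC radial types, and Tcf3, at 5.91, 6.11 and 5.56, passed in none. Tal1, the blood and V2 interneuron factor that works with Lmo2, was at 3.98, 3.37 and 3.59.

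Of 5 further Lmo4 partners 4 were measured and 0 passed in any comparison. Their medians were 0.11, 0.23 and 0.01 log2 units. Deaf1, a transcription factor that binds Lmo4, was at 9.21 in phrenic and 9.19 in C3-C5 GFP-only cells, and the histone deacetylase Hdac2 was at 10.63, 10.91 and 10.98. Skp2, a ubiquitin ligase subunit, was at 6.64, 6.44 and 6.39, and Brca1, a DNA repair gene whose product binds Lmo4, was at 4.82, 4.47 and 4.54.

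**Figure D4:**
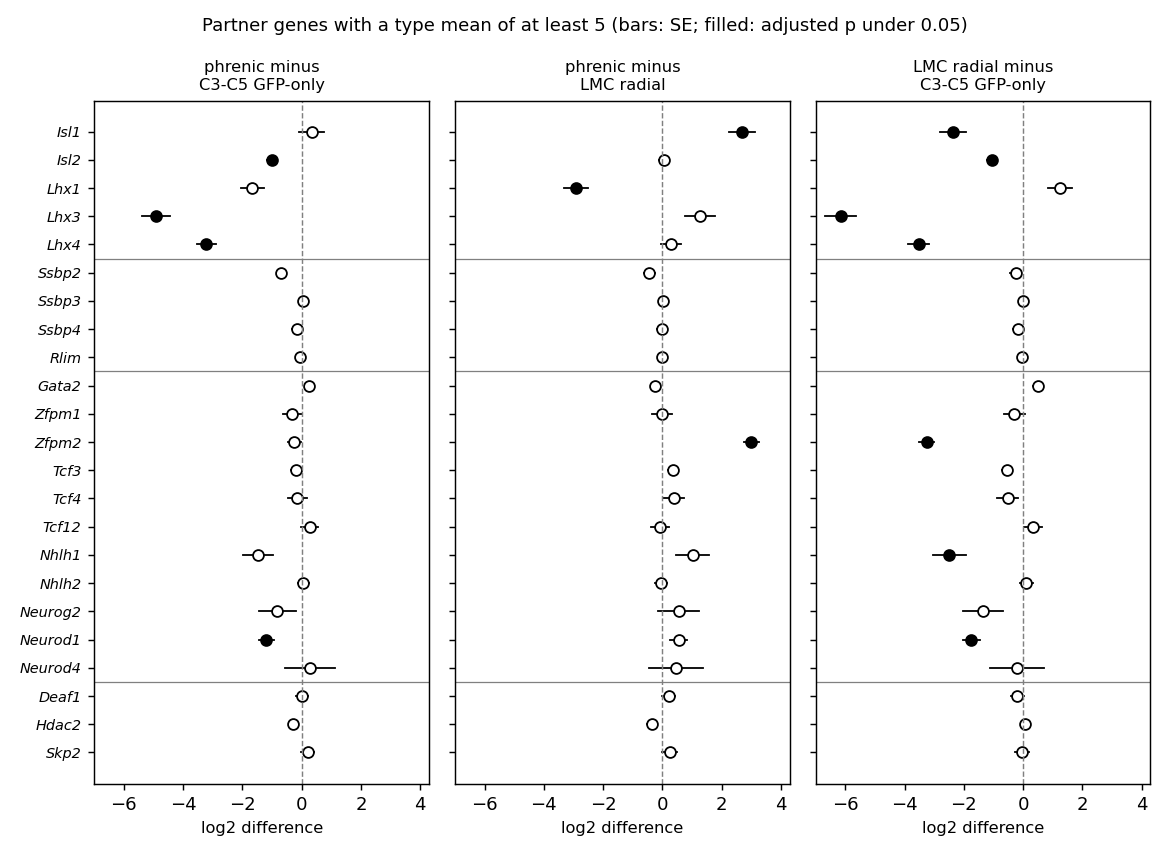
Log2 difference (horizontal axis) of partner genes with a type mean of at least 5, in the 3 comparisons, with bars for the standard error and filled points where the adjusted p is under 0.05. From top to bottom the blocks are LIM-homeodomain factors, Ldb stabilisers and turnover, bHLH and GATA partners, and other Lmo4 partners, and filled points occur only among the LIM-homeodomain factors and the bHLH and GATA partners.

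For the 3 members that passed in at least 1 comparison, the nearest genes were those with the smallest root mean square difference over the 11 arrays, after each gene was centred on its own mean. The measure was taken against 18192 other genes. Nearest to Lmo3 were Lhx1os, a transcript named for its place opposite Lhx1 (0.43 log2 units), Zfp503, a zinc-finger repressor (0.46), and Adarb2, of the RNA-editing deaminase family (0.46), where the median of all genes was 1.79. Their means were lowest in phrenic and highest in LMC radial cells, at 5.53, 7.82 and 9.09 for Lhx1os and at 7.35, 9.86 and 10.96 for Zfp503, the C3-C5 GFP-only mean being the middle value. Adarb2 was at 3.55, 5.89 and 6.82.

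Nearest to Lmo4 were Ramp3 (0.41), Mecom (0.46) and Dlc1 (0.47), with a median of 1.13 over all genes. Ramp3 and Mecom passed in all 3 comparisons with the order of Lmo4, at 5.35, 7.05 and 3.96 for Ramp3 and 10.17, 11.62 and 8.50 for Mecom, given as phrenic, then C3-C5 GFP-only, then LMC radial. Dlc1 was at 9.08, 9.44 and 6.96. Nearest to Lmo1 were St6galnac5, a sialyltransferase (0.21), Cnnm4, of a metal transporter family (0.22), and 9530077C05Rik (0.25), with a median of 0.78 over all genes. Their means were 10.02, 9.98 and 8.45, then 5.62, 5.92 and 4.49, and 5.60, 5.59 and 4.13, each lowest in LMC radial cells.

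**Figure D5:**
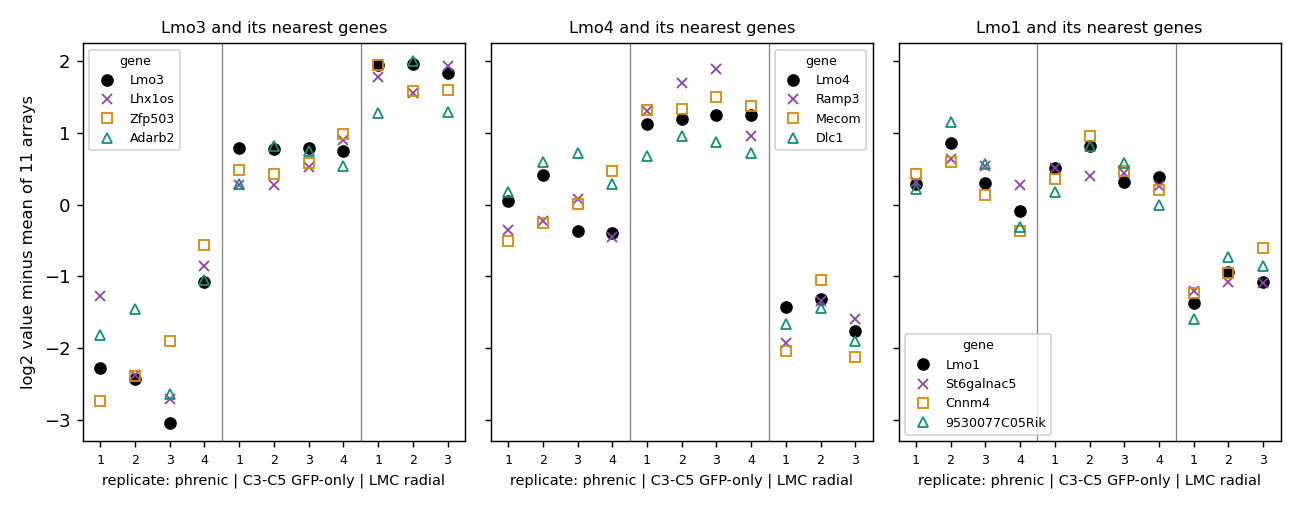
Log2 value minus the gene's mean over 11 arrays (vertical axis) for Lmo3, Lmo4 and Lmo1 and the 3 genes nearest to each, by array, ordered by cell type and replicate number. The genes were chosen for their likeness, so phrenic arrays are lowest in the Lmo3 panel and LMC radial arrays in the others, but within a type they differ, as for Dlc1, whose phrenic and C3-C5 GFP-only arrays overlap.

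The labelled cell type was checked with motor neuron markers. All 8 were measured, and their mean was 8.56 to 8.87 in phrenic, 8.74 to 8.94 in C3-C5 GFP-only and 8.01 to 8.27 in LMC radial arrays. Mnx1, the gene also called Hb9, was at 9.01, 9.07 and 8.14, and Prph, a filament protein of motor neurons, was at 11.88, 11.60 and 11.56. The lower list mean of LMC radial cells moved with their lower Lmo1 and Lmo4. Of the list, 2 markers were higher in phrenic than in LMC radial cells and 3 lower in LMC radial than in C3-C5 GFP-only cells. Isl1 was in both counts, at 9.63 in LMC radial against 12.32 in phrenic and 11.99 in C3-C5 GFP-only cells. Isl2 was among the 3, so part of the lower list mean came from LIM-homeodomain genes already described. The part of the lower list mean in the Lmo results was not tested. Of 7 V2 interneuron markers 6 were measured and 5 had all type means below 5, and the list mean was 3.69 to 4.20 over all arrays. Of 8 macrophage or microglia markers 7 had all type means below 5. The difference between the 3′ and 5′ probe sets of Actb, a sign of RNA length, was 1.05 to 2.15 in phrenic, 1.07 to 1.98 in C3-C5 GFP-only and 1.01 to 1.12 in LMC radial arrays. Array medians ran from 4.48 to 4.63.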

How the data were processed

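RNA was hybridised to 11 arrays, with 4 phrenic samples, 4 C3-C5 GFP-only samples and 3 LMC radial samples. The deposited values are log2 values, 1 per probe set and array, made by the authors with RMA, per the submitters' processing notes. Groups follow the titles, and the description of the C3-C5 samples instead speaks of a rhombomere. RMA corrects background, normalizes between arrays and summarises the probes of a set. Its version is not given in the sources used here. The table holds 45101 probe sets. The 64 controls were left out of the tests and 45037 were tested without a filter, of which 34945 had 1 gene symbol, 932 several and 9160 none. A difference between probe sets of different genes is no measure of their relative level, since probes differ in response. The number of arrays limits the precision.

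Type means were fitted in limma 3.58.1 under R 4.3.3 over all arrays (8 residual and 2.92 prior degrees of freedom), with 3 pairwise contrasts. Two-sided p-values were adjusted by Benjamini and Hochberg over all 45037 probe sets, and 0.05 was the threshold. The fit was tested on simulated data. The members, gene lists and rules were chosen with earlier results of these data known. Named genes are all members, up to 6 genes with the smallest p from each partner list, and the 3 nearest genes of each member that passed.

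The highest correlation between arrays was 0.996, and no arrays were identical. Replicate numbers from the titles were checked for pairing. Deviations of same-numbered phrenic and C3-C5 GFP-only arrays correlated at 0.13 to 0.22 in 4 of 4 pairs, and each of these pairs lay within the same array set. Pairs of unlike number ran from 0.18 to 0.28 within an array set and from -0.25 to -0.13 across the sets. The sign of the correlation thus went with the array set, whether or not the numbers matched. No source says what a number marks. Alternatives were other normalizations, a filter and a floor at 5, another variance prior, array weights, a replicate block, gene means, fits of 2 types, array sets, covariates and leaving out each array. Array sets are a split of the 25th percentiles and not a labelled batch.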

Additional observations from a re-analysis of the deposited data

Results flagged for a closer look

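In 2 of 16 groups of 4 arrays, 1 array lay far from the others by Dixon's criterion, which flags about 1 in 20 groups by chance. For Lmo2, C3-C5 GFP-only replicate 1 was at 7.02, and the nearest of the other arrays was at 7.99. The gap was 0.939 of the group's range, above the 95% critical value for 4 arrays. For Ldb2 on probe set 1439557_s_at, phrenic replicate 4 was at 3.48 and the nearest array at 6.46, a gap of 0.907 of the range.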

How the results depend on the processing

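Lmo1 and Lmo4 against LMC radial cells from either side, and Lmo3 in phrenic against LMC radial cells, passed in all 24 alternatives. Phrenic against C3-C5 GFP-only passed in 24 of 25 for Lmo3 and in 22 of 25 for Lmo4. Of the 6 members, 0 passed in that comparison on the arrays of the higher set and 1, Lmo3, with the mesenchyme covariate. With array weights, the array set as a block, gene means or phrenic replicate 4 left out, 3 passed, Ldb2 being added. Calls over all 45037 probe sets were 1109 with array weights, 1194 with the block and 1240 without phrenic replicate 4, beside 882. With gene means they were 588 of 18193 genes, which is another total. LMC radial against C3-C5 GFP-only passed for 4 members with array weights and with those types fitted alone, Lmo3 and Ldb2 being added, and for 2 to 4 with single arrays left out, 4 without phrenic replicate 4. The share of all probe sets called was then 14.8%, 8.16% and 5.89%, beside 3.76%. Among members, only differences that had not passed changed sign. Leaving out 1 array moved phrenic minus C3-C5 GFP-only from -0.35 to 0.18 for Lmo2 and from -0.32 to 0.11 for Ldb1. For Ldb1 the array set as a block gave 0.064 for phrenic minus LMC radial and -0.15 for LMC radial minus C3-C5 GFP-only, and the higher set alone gave 0.12 and -0.094, with 0.027 for phrenic minus C3-C5 GFP-only. For Lmo2 the Actb covariate gave -0.22 for phrenic minus LMC radial. For Lmo1 phrenic minus C3-C5 GFP-only was 0.23 with the mesenchyme covariate and 0.016 in the lower set. The cause was not tested, except that smaller sets hold fewer arrays. Over all probe sets, calls ran from 127 to 1240 in phrenic against C3-C5 GFP-only and from 778 to 4266 in phrenic against LMC radial. In LMC radial against C3-C5 GFP-only they ran from 98 to 6685. Each lowest count was on the higher set. The highest was without phrenic replicate 4 in both phrenic comparisons and with array weights in LMC radial against C3-C5 GFP-only.

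With the replicate number as a block, 2, 3 and 3 members passed in the same order. The added call was Lmo3 in LMC radial minus C3-C5 GFP-only (1.33, adjusted p = 0.0489), and no other call of a member's representative probe set changed. Same-numbered arrays of LMC radial and the other types correlated at -0.08 to 0.05 in their deviations, and those of unlike number at -0.08 to 0.08. Whether same-numbered arrays share more than the number is not stated.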

Other observations

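Lmo7 and Ldb3 carry similar names but belong to other families, since Lmo7 also has other domains and Ldb3 is a muscle Z-disc protein. Neither passed in any comparison. Lmo7 was at 4.15 ± 0.74 (SD, n = 4), 4.37 ± 0.12 (SD, n = 4) and 4.28 ± 0.04 (SD, n = 3) in phrenic cells, C3-C5 GFP-only cells and LMC radial cells, and Ldb3 was at 6.13 ± 0.93, 5.42 ± 0.55 and 5.70 ± 0.30 over the same arrays.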
